A study of Mus musculus with 2 samples.

Results

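The genes described here are 10 genes of mast cells, basophils and eosinophils, measured in the liver of mouse embryos at day 14.5. They are Mcpt8, Prss34, Cpa3, Ms4a2, Fcer1a, Tpsb2, Cma1, Hdc, Epx and Prg2, and all 10 were found by symbol among the 43346 mouse gene rows of both libraries. They were chosen by cell type after an earlier look at these same 2 libraries, in which genes of these cells differed between the livers, so their levels and the differences between the livers are given as a description with no test. The study holds 1 group of 2 biological replicates of strain B6NCrl, 1 library each, each starting from 10 ng of RNA longer than 200 nucleotides. No treatment, genetic change or second tissue was compared, and the livers were collected on different days. The samples are labelled as single livers and also as both sexes pooled. In replicate 2, the Y-linked genes Eif2s3y, Uty and Kdm5d had 0 reads and Ddx3y had 1, while replicate 1 held 1580, 874, 577 and 1954, so replicate 2 held almost no Y-linked reads. Xist, which is transcribed from the inactive X chromosome, had 8.9 estimated reads in replicate 1 against 7065 in replicate 2. Both libraries thus went against the label of pooled sexes. Embryo sex, collection day and library therefore cannot be told apart in any difference between the livers.

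Mast cells, basophils and eosinophils are granulocytes that arise from myeloid progenitors, which at this age are produced in the liver. Mast cells and basophils carry the high-affinity IgE receptor and store histamine and serine proteases in their granules, while eosinophil granules hold a peroxidase and strongly basic proteins. Transcription factors of the GATA family are known to act in all 3 lineages. In whole liver these transcripts are diluted by those of red cell precursors and hepatoblasts, and fewer cells of a type cannot be told apart from less RNA per cell.

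Promoter windows of 300 bases (250 before to 50 after the start site, RefSeq, GRCm38.p6) were found for 8 of the 10 genes, and 4 are shown. They are the windows of Mcpt8, Prss34 and Ms4a2, which were all lower in replicate 2, and of Cpa3, which was not. Capitals mark 4 forms of the core bound by GATA factors, searched on both strands. The first form is AGATAA, another form is TGATAA, the third form is AGATAG and the last form is TGATAG.
Mcpt8 (chr14:56085148-56085447, minus strand): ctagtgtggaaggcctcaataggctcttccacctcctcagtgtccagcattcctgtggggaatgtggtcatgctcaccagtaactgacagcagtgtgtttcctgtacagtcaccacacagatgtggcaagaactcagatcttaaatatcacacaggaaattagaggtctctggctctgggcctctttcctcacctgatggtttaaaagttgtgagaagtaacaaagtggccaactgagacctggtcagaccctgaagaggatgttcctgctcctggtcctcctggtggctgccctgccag
Prss34 (chr17:25298144-25298443, plus strand): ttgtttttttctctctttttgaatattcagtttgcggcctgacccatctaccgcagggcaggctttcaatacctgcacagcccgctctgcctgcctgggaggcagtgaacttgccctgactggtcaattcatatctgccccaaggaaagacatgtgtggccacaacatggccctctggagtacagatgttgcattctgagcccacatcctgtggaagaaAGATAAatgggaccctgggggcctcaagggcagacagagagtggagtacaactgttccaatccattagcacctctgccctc
Ms4a2 (chr19:11623670-11623969, minus strand): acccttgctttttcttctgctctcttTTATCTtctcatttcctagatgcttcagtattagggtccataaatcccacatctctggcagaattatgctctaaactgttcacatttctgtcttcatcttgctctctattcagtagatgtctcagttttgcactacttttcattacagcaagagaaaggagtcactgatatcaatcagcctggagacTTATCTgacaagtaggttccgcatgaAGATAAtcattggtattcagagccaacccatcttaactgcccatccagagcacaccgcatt
Cpa3 (chr3:20242132-20242431, minus strand): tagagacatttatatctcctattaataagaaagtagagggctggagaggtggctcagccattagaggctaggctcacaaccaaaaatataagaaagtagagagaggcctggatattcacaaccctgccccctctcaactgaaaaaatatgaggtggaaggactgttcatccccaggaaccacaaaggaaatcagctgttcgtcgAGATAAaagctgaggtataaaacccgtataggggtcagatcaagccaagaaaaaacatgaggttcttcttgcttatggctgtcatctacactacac
These letters occurred in 6 of the 8 windows, and 29.8% of the 32851 promoter windows in the table hold them. Ms4a2 had 3 matches, beginning at positions -224, -37 and -11 from the start site. Prss34 had 1 at -31 and Cpa3 had 1 at -46, the latter next to TATAAA at -31. Fcer1a, Hdc and Cma1 had 1 each, and the windows of Mcpt8 and Epx held none of these letters. The gene positions used here start Mcpt8 farther upstream than RefSeq does, at 56085273, inside its window. Fewer than 250 bases before that start were therefore searched for Mcpt8. TATAAA, on either strand, was found in 3 of the 8 windows (Cpa3, Epx and Fcer1a) and in 13.6% of all windows, and TTGCNNAA, the core of C/EBP sites, in 1 of 8 (Fcer1a) and in 10.8% of all. A match of letters is not evidence of binding.

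The eosinophil granule gene Prg2 was the most abundant of the 10 in both livers, followed in mean level by Mcpt8 and Hdc. Levels are TPM, the length-scaled share of all transcripts. Together these 3 genes held 82.0% of the summed TPM of the 10 genes in replicate 1 and 83.2% in replicate 2. The sum was 44.9 TPM in replicate 1 against 28.3 TPM in the other liver, a mean of 36.6 ± 11.7 (SD, n = 2). All 10 genes had at least 1 read in each library, from 2018 reads in replicate 1 and 907 in replicate 2, out of 37059776 and 26908926 estimated reads on mouse genes. At 1 TPM or more, 6 genes were detected in replicate 1 and 4 in both (Prg2, Mcpt8, Hdc and Cpa3), where 26.2% of all mouse gene rows were detected in both.

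**Figure D1:**
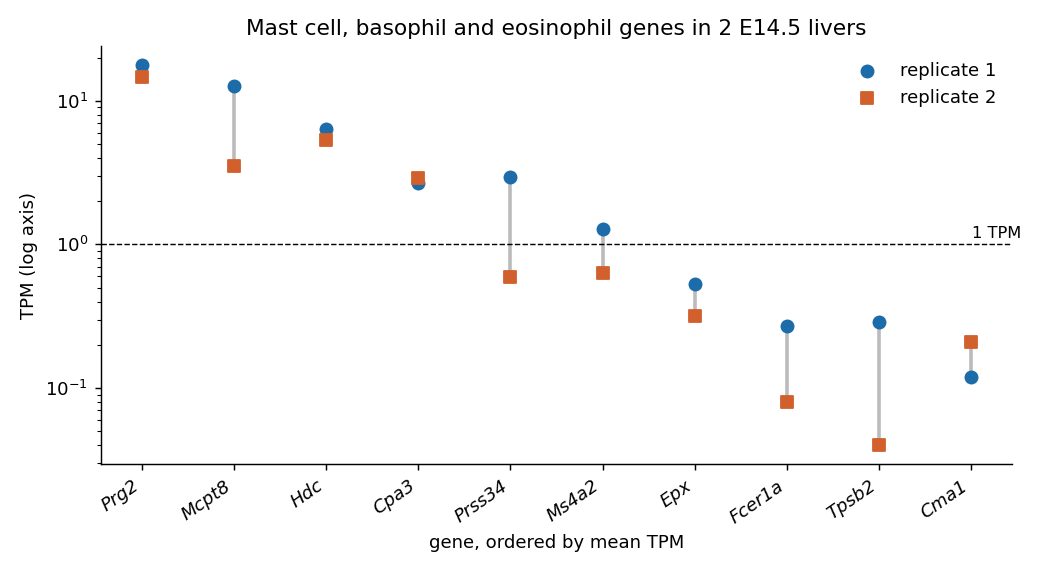
TPM of the 10 genes (log axis) in replicate 1 (circles) and replicate 2 (squares), ordered by mean TPM, with a grey line joining the values of a gene and a dashed line at 1 TPM. Prg2 is highest in both livers, Mcpt8 and Prss34 lie far apart between the livers, and Hdc, Prg2 and Cpa3 lie close together. Tpsb2 and Fcer1a also lie far apart, Tpsb2 the most of all, but they rest on 13 and 12 reads in sum.

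In the order of mean level, the values of Prg2 did not overlap those of Mcpt8, the next gene, in any library. Mcpt8 and Hdc overlapped, with Mcpt8 above Hdc in replicate 1 and below it in replicate 2. Cpa3, Prss34 and Ms4a2 followed, each overlapping its neighbour in this order. Epx lay below all values of Ms4a2 and above all values of Fcer1a, and Fcer1a, Tpsb2 and Cma1 overlapped at the bottom.

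Prg2 and Epx represent the eosinophil granule. Prg2 encodes major basic protein (ENSMUSG00000027073.5, mm10 chromosome 2, 84980461 to 84983632) and stood at 17.8 TPM in replicate 1 against 14.7 TPM in replicate 2 (549 and 316 reads). Epx encodes eosinophil peroxidase (ENSMUSG00000052234.2, chromosome 11, 87864000 to 87875536) and stood at 0.53 and 0.32 TPM, from 57 and 24 reads. Both were somewhat lower in replicate 2. Prg2 was thus 33.5-fold above Epx in replicate 1 and 46-fold in replicate 2, although both proteins belong to the same granule. With reads scaled to each library's total on mouse genes, the count ratio of replicate 2 to replicate 1 was 0.793 for Prg2 (95% exact interval 0.688 to 0.912) and 0.580 for Epx (0.344 to 0.95). These intervals cover counting error only and say nothing of the spread between embryos.

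Other eosinophil genes did not follow one direction. Of 9 measured, 5 were at 1 TPM or more in both livers. The ribonuclease genes Ear2, Ear6 and Ear1 stood at 7.21, 3.17 and 2.60 TPM in replicate 1 and at 6.16, 1.93 and 2.41 TPM in replicate 2, all lower there by TPM. By counts, the interval lay below 1 for Ear6 (ratio 0.588, 0.384 to 0.883). It included 1 for Ear2 (0.818, 0.640 to 1.04) and Ear1 (0.884, 0.588 to 1.32). The ribonuclease genes are close copies of one another, but the posterior SD, the deposited uncertainty of a gene's estimated reads, was below 1 read for each. Prg3, a homologue of Prg2, was higher in replicate 2, at 1.75 and 2.84 TPM, and so was the surface lectin gene Siglecf, at 1.13 and 1.96 TPM. The count ratios of these 2 genes were 1.68 (1.12 to 2.53) and 1.73 (1.34 to 2.24). Unlike Siglecf, the receptor genes Ccr3 and Il5ra were near 0. Ccr3, the eotaxin receptor, had 6 and 10 reads, and Il5ra, the interleukin 5 receptor subunit, had 5 and 2.

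Mcpt8 and Prss34, both proteases known from basophils, showed the widest differences between the livers among genes of the set with more than 13 reads. Mcpt8 (mast cell protease 8, ENSMUSG00000022157.7, chromosome 14, 56082166 to 56085273) stood at 12.6 TPM in replicate 1 against 3.51 TPM in replicate 2 (399 and 77 reads). Replicate 2 was 3.76-fold lower by reads scaled to library size (counting interval 2.94 to 4.87). Prss34 (a tryptase-like protease also called mast cell protease 11, ENSMUSG00000056399.1, chromosome 17, 25298394 to 25300165) stood at 2.95 and 0.59 TPM, from 138 and 19 reads, and was 5.27-fold lower (3.25 to 9.03). The pair held 34.7% of the summed TPM of the 10 genes in replicate 1 and 14.5% in replicate 2. Summed over the other 8 genes, the count ratio was 0.754 (0.691 to 0.822), against 0.246 (0.196 to 0.306) for the pair.

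Another basophil gene did not show this difference. Cd200r3, an activating receptor of basophils and mast cells, stood at 0.79 TPM in replicate 1 against 0.97 TPM in replicate 2 (43 and 33 reads), with a count ratio of 1.06 (0.651 to 1.70). Mcpt8 was 16.0-fold above Cd200r3 in replicate 1 and 3.62-fold in replicate 2. The 4 listed basophil markers (Mcpt8, Prss34, Cd200r3 and Fcer1a) summed to 16.6 and 5.15 TPM, and 1 of them, Mcpt8, reached 1 TPM in both livers. Of 12 further genes listed for basophils, Cd200r3 among them, 3 averaged at least 1 TPM. Ifitm1, an interferon-induced membrane protein gene, stood at 25.4 and 16.7 TPM, the integrin gene Itgb7 at 2.29 and 2.25 TPM, and the cytokine gene Csf1 at 4.75 and 4.94 TPM. Il4, a cytokine that basophils release, had 10 and 8 reads.

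Of the IgE receptor, the shared subunit was abundant and the subunits restricted to mast cells and basophils were scarce. Fcer1a encodes the IgE-binding alpha chain (ENSMUSG00000005339.6, chromosome 1, 173221284 to 173227214) and stood at 0.27 and 0.08 TPM, from 10 and 2 reads. Ms4a2 encodes the signal-amplifying beta chain (ENSMUSG00000024680.8, chromosome 19, 11615523 to 11623719) and stood at 1.28 and 0.63 TPM, from 87 and 26 reads. Fcer1g, the gamma chain that many myeloid cells also use for other Fc receptors, stood at 84.5 and 72.1 TPM. All 3 were lower in replicate 2, with the alpha chain resting on very few reads. Fcer1g was 66.0-fold above Ms4a2 in replicate 1 and 114-fold in replicate 2. The count ratio was 0.412 for Ms4a2 (0.255 to 0.644), 0.814 for Fcer1g (0.758 to 0.875) and 0.275 for Fcer1a (0.0293 to 1.29), the last with 1 inside its interval.

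Signalling genes downstream of the receptor, which are shared with other blood cells, lay at the level of all genes in their ratio between the livers. Of 15 measured, 14 averaged at least 1 TPM, with a median log2 ratio of 0.10, the same as over the 12114 genes at 1 TPM or more in either liver. By counts, the interval lay above 1 for 2 genes (Lyn and Lat) and below 1 for 1 (Lat2). Ptpn6, an inhibitory phosphatase gene, stood at 22.9 and 24.3 TPM, the kinase gene Lyn at 13.2 and 15.6 TPM and the kinase gene Btk at 8.84 and 11.0 TPM. The count ratios of Ptpn6 and Btk included 1, at 0.988 (0.919 to 1.06) and 1.03 (0.911 to 1.16), and their log2 ratios changed sign on CPM, reads scaled to library size, with TMM (trimmed mean of M values) factors, to -0.07 and -0.01. The adaptor gene Lat stood at 5.18 and 6.67 TPM. Lat2, the adaptor used by mast cells beside Lat, went the other way, at 1.67 and 0.82 TPM, from 97 and 33 reads (count ratio 0.469, 0.306 to 0.702).

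Hdc and Cpa3, which mast cells and basophils share with early progenitors, differed less between the livers than the basophil proteases. Hdc encodes histidine decarboxylase, the enzyme that makes histamine (ENSMUSG00000027360.5, chromosome 2, 126593667 to 126619299). It stood at 6.40 TPM in replicate 1 against 5.31 TPM in replicate 2 (611 and 323 reads). Its count ratio was 0.728 (0.634 to 0.835). Cpa3 encodes the granule carboxypeptidase A3 (ENSMUSG00000001865.2, chromosome 3, 20215620 to 20242181) and stood at 2.66 and 2.88 TPM, from 150 and 113 reads. Its ratio was 1.04 (0.805 to 1.33), so replicate 2 was neither clearly higher nor clearly lower for this gene. Its log2 ratio was 0.08 on TPM + 1 and changed sign, to -0.001, on CPM with TMM factors.

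Of the other histamine genes, only the vesicle transporter gene Slc18a2, which loads histamine into granules, reached 1 TPM in both livers. Slc18a2 stood at 1.94 and 1.69 TPM, so that Hdc was 3.30-fold above it in replicate 1 and 3.14-fold in replicate 2. Hnmt, which inactivates histamine, had 17 and 19 reads, at 0.27 and 0.42 TPM. Aoc1, the other histamine-degrading enzyme, had 1 read in replicate 1 and 0 in replicate 2. Among the receptors, Hrh2 had 10 reads in replicate 1 and 1 in replicate 2, Hrh1 had 0 and 2, and no read of Hrh3 or Hrh4 was counted.

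Genes of connective tissue and mucosal mast cells were at or near 0. Tpsb2, the tryptase mast cell protease 6 (ENSMUSG00000033825.9, chromosome 17, 25366305 to 25369098), stood at 0.29 TPM in replicate 1 against 0.04 TPM in replicate 2 (12 reads and 1 read). Cma1, the chymase mast cell protease 5 (ENSMUSG00000022225.6, chromosome 14, 55941451 to 55944675), stood at 0.12 and 0.21 TPM, from 5 and 6 reads. The ratio of replicate 2 to replicate 1 was 0.115 for Tpsb2 (0.00268 to 0.776) and 1.65 for Cma1 (0.420 to 6.85), and these few reads set no order between the livers for Cma1. No read was counted of the chymase gene Mcpt4 or of Mrgprb2, a receptor of connective tissue mast cells, in either library. A count of 0 allows up to 3 reads, which is 0.0805 TPM in replicate 1 and 0.116 TPM in replicate 2 for Mcpt4. Of the 6 listed mast cell markers, Cpa3 and Kit reached 1 TPM in both livers, and Kit is also a receptor of blood progenitors. The mast cell label of the set therefore rested on genes that are not restricted to mature mast cells.

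Within its gene family on chromosome 14, Mcpt8 was 1 of 2 genes above 1 TPM. Of 15 chymase, granzyme and cathepsin G genes in this cluster, 10 had no read in either library. The neighbour of Mcpt8, the cathepsin G gene Ctsg, known from neutrophil precursors and mast cells, stood at 38.8 and 22.2 TPM, from 1466 and 583 reads. Ctsg was also lower in replicate 2, with a count ratio of 0.548 (0.497 to 0.603), but less so than Mcpt8, and it was 3.08-fold above Mcpt8 in replicate 1 and 6.33-fold in replicate 2. The remaining genes with reads were Cma1, Mcpt2 (7 and 3 reads) and the granzyme gene Gzmb (8 and 2 reads).

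Prss34 was the only one of 9 tryptase family genes on chromosome 17 with a mean above 1 TPM. Tpsg1, a membrane-anchored tryptase, stood at 0.43 and 0.40 TPM and Prss41 had 4 reads and 1 read. No read of Tpsab1, the close copy of Tpsb2, or of Prss27, Prss28, Prss29 and Prss33 was counted. The posterior SD of Tpsb2 and of Tpsab1 was 0 in both libraries.

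**Figure D2:**
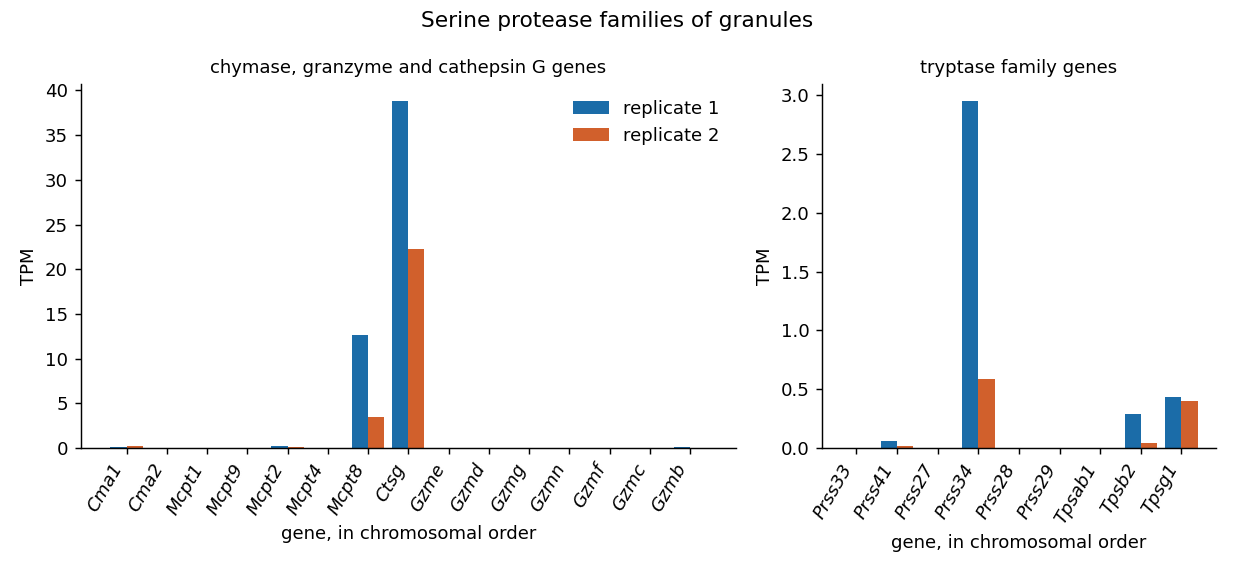
TPM of the serine protease genes of granules in chromosomal order, with 1 bar for replicate 1 and 1 for replicate 2: the chymase, granzyme and cathepsin G cluster on the left and the tryptase family on the right, each on its own axis from 0. Mcpt8 and Ctsg, which are neighbours, carry almost all of the first family, and its other genes are at or near 0. Prss34 carries most of the second, but in replicate 2 Tpsg1 stands at 0.40 TPM beside Prss34 at 0.59 TPM.

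On log2(TPM + 1), where small values weigh less, 2 of the 10 genes were at least 2-fold lower in replicate 2 (Mcpt8 and Prss34) and none was 2-fold higher. The same was true of 0.175% of all mouse gene rows in the lower direction. Of 12114 genes at 1 TPM or more in either liver, 0.627% were 2-fold lower and 0.578% were 2-fold higher. The log2 ratio was -1.59 for Mcpt8 and -1.31 for Prss34. The median over the 10 genes was -0.24, against 0.10 over the 12114 genes. By counts, 7 of the 10 genes had an interval below 1 (Mcpt8, Prss34, Ms4a2, Tpsb2, Hdc, Epx and Prg2), 0 had one above 1, and 3 included 1. Of 16251 genes with 10 or more reads in sum, 12.1% had an interval below 1 and 24.9% above 1. Since the genes were chosen from these libraries with such differences in view, nothing is read from their count.

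**Figure D3:**
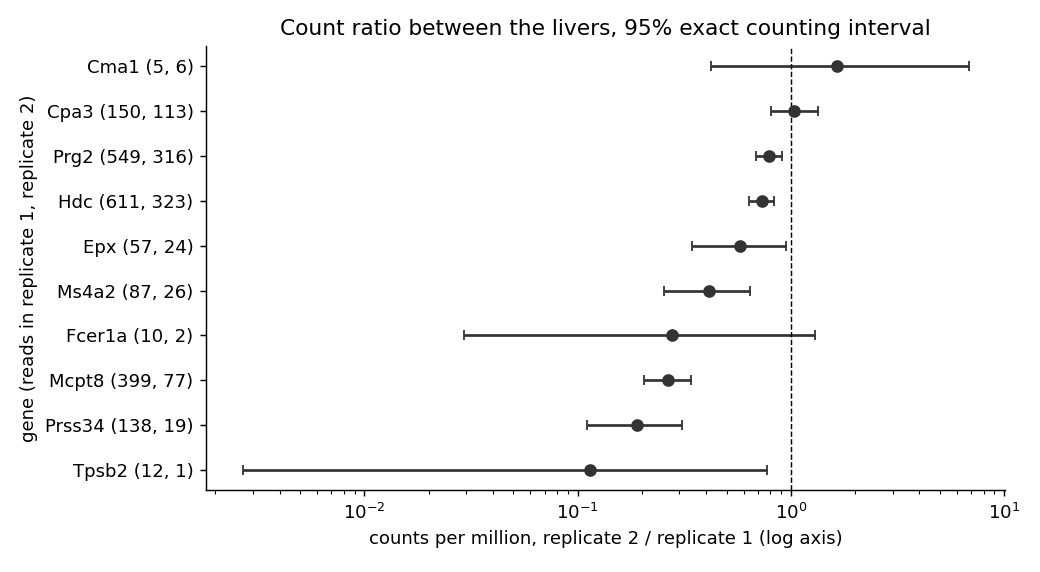
Ratio of reads scaled to each library's total on mouse genes, replicate 2 over replicate 1 (log axis), for the 10 genes, with bars for the 95% exact counting interval and the reads of each library beside the name. The intervals of Mcpt8 and Prss34 lie far below 1, that of Cpa3 spans 1, and those of Tpsb2, Fcer1a and Cma1 are wide because 11 to 13 reads stand behind each.

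Receptors and growth factors of these lineages were measured as lists. Kit, the receptor for stem cell factor, stood at 9.71 and 9.16 TPM, and its ligand gene Kitl at 7.79 and 9.15 TPM. Csf2rb, the common beta chain of the receptors for interleukin 3, interleukin 5 and GM-CSF, stood at 4.84 and 3.47 TPM (count ratio 0.686, 0.613 to 0.767). The alpha chain gene Il3ra of the interleukin 3 receptor stood at 0.92 and 1.41 TPM, and that of the GM-CSF receptor, Csf2ra, at 2.65 and 2.93 TPM. Csf2rb has a close copy, Csf2rb2, and its posterior SD was 3.39 and 2.02 reads, of 944 and 470. No read of the cytokine genes Il3, Il5, Csf2 or Il9 was counted in either liver. Il33, an alarm cytokine that activates mast cells and basophils, had 94 and 23 reads, at 0.92 and 0.32 TPM, a count ratio of 0.337 (0.204 to 0.536).

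Transcription factors of these branches were present, and most of them are shared with other blood lineages. Of 22 measured, 19 were at 1 TPM or more in both livers. Gata1, which erythroid cells also use, stood at 85.8 and 103 TPM. Gata2, a factor of mast cell and basophil development named here outside the rule, stood at 2.08 and 1.60 TPM, with a count ratio of 0.740 (0.600 to 0.908). Mitf, a mast cell factor named outside the rule as well, had 31 and 26 reads, at 0.16 and 0.26 TPM. Irf8, a factor of monocytes and basophil precursors, stood at 7.39 and 4.88 TPM, and Ikzf1 at 37.9 and 49.4 TPM.

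Srgn and Cd63, which serve granules in many cell types, stood above all 10 genes of the set in both livers. Srgn, the proteoglycan core on which granule proteases are stored, stood at 67.3 and 59.9 TPM, and Cd63, a granule membrane protein gene, at 82.7 and 72.2 TPM. Rab27b, a gene of granule secretion that platelets also use, was higher in replicate 2, at 6.36 and 9.74 TPM. In the eicosanoid list, Hpgds, which makes prostaglandin D2 in mast cells, stood at 3.33 and 1.60 TPM, and Alox5ap, needed for leukotriene synthesis, at 27.3 and 17.5 TPM. By counts their ratios were nearer to 1, at 0.724 (0.565 to 0.923) and 0.814 (0.715 to 0.925).

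Markers of other blood cells also differed between the livers. Of 14 neutrophil and granulocyte precursor markers averaging at least 1 TPM, 13 were lower in replicate 2, with log2 ratios from -0.71 to 0.02 and a summed level over the 15 listed of 2869 TPM in replicate 1 against 2062 in replicate 2. Ms4a3, a granulocyte precursor gene of the same family as Ms4a2, stood at 31.3 and 18.8 TPM and Lcn2 at 53.1 and 33.7 TPM. With the pseudocount of 1, Mcpt8 and Prss34 lay below the range of these markers. With a pseudocount of 5, Prss34 stood at -0.51, between the markers Ms4a3 (-0.61) and Mpo (-0.25). Ctsg, which was not in this list, stood at -0.78 with the pseudocount of 1. In the other direction, all 10 megakaryocyte markers were higher in replicate 2, with log2 ratios from 0.23 to 0.57. The median over the 12114 genes at 1 TPM or more in either liver was 0.10. By counts, 9 of the 10 megakaryocyte markers had an interval above 1, and 11 of the 15 neutrophil markers had one below 1. Of all genes with 10 or more reads in sum, 24.9% had an interval above 1 and 12.1% below 1. The 10 macrophage markers averaging at least 1 TPM ranged from -0.16 to 0.30. The part of neutrophil precursors in the differences of the set was not tested.

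**Figure D4:**
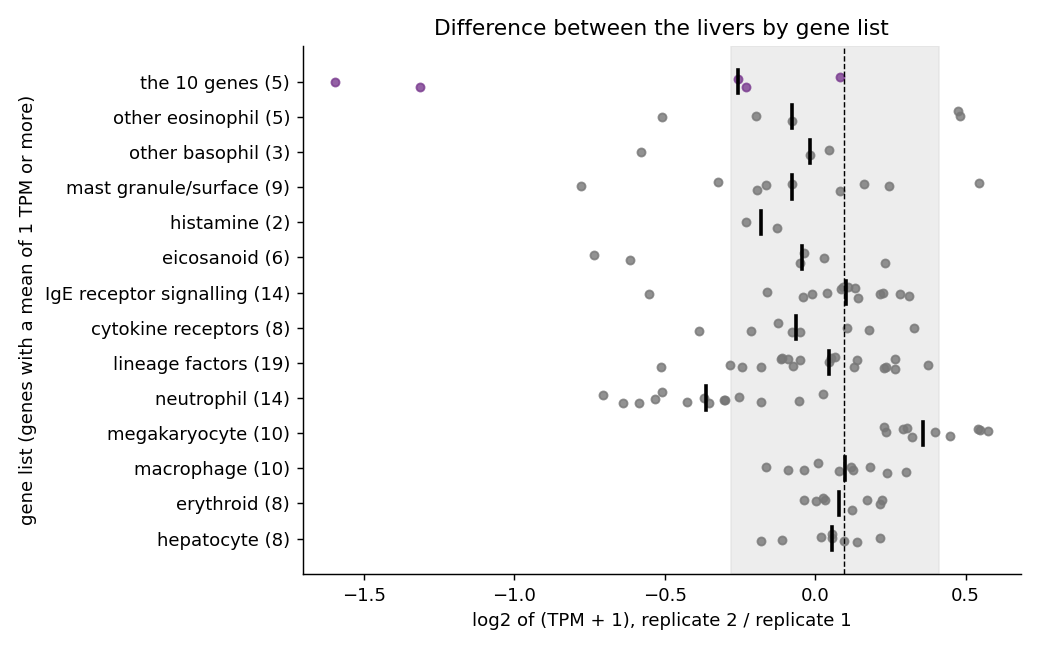
Log2 ratio of TPM + 1, replicate 2 over replicate 1, for genes averaging at least 1 TPM, by list, with the number of genes in brackets. Black bars are list medians, the dashed line is the median of 12114 genes and the grey band holds the central 90% of them, from -0.28 to 0.41. Mcpt8 and Prss34 lie to the left of all other points, the neutrophil markers lie mostly below 0 and the megakaryocyte markers above it.

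On log2(TPM + 1), few genes had a ratio like that of Mcpt8. Of 11431 genes averaging at least 1 TPM and at least 50 reads, 8 had a log2 ratio at or below that of Mcpt8, 4 of them the Y-linked genes above. The 5 nearest in log2 ratio, over 2 libraries, were Tom1 (-1.65), Hist2h3c1 (-1.51), Slc15a2 (-1.36), Gm6344 (-1.36) and Gm24407 (-1.32). With a pseudocount of 0.1, Mcpt8 stood at -1.82. Tom1 (-4.48), Hist2h3c1 (-3.48), Slc15a2 (-2.70), Prss34 (-2.14) and Gm6344 (-1.87) then lay below it, and Gm24407 (-1.38) above. The rank of Mcpt8 thus depended on the pseudocount, and Mcpt8 was chosen with such differences in view. The estimated reads of Tom1 were 195 and 0 with a posterior SD of 104 reads in replicate 1, and those of Hist2h3c1 were 153 and 4.88 with a posterior SD of 46.0 reads. Both values are thus uncertain. Slc15a2, a peptide transporter gene, had 194 and 14 reads with a posterior SD of 0. The posterior SD of Mcpt8 was 0 in both libraries, and only microRNA genes without reads overlap Mcpt8 and Cpa3 in the annotation used.

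At the transcript level, 8 of the 10 genes had all reads on 1 transcript in both livers, and Hdc and Ms4a2 did not. For 5 of them (Cma1, Mcpt8, Prg2, Prss34 and Tpsb2) this was fixed in advance, because only 1 transcript was listed. Cpa3, Epx and Fcer1a each had a further listed transcript, which held no reads. The same share over all genes was not computed, so nothing is read from this count. The protein-coding transcript Hdc-201 held 98.6% of Hdc TPM in replicate 1 and 88.0% in replicate 2. The remainder in replicate 2 was mostly the short transcript Hdc-205, with 10.9% of TPM from an estimated 4.3 reads. By reads, Hdc-201 held 99.0% and 96.4%, so the livers were closer than by TPM. Ms4a2 was divided between a transcript of 2391 nucleotides, with 61.0 and 15.6 estimated reads, and one of 1010 nucleotides, with 17.4 and 10.4. A transcript of 1211 nucleotides held another 8.57 reads, 14.4% of TPM, in replicate 1 and 0 in replicate 2. By TPM the 2391-nucleotide transcript led in replicate 1 with 49.8% and the 1010-nucleotide one in replicate 2 with 62.8%, but by reads the 2391-nucleotide one led in both, with 70.1% and 59.9%. With 26 reads of Ms4a2 in replicate 2, these shares are imprecise. The names of the Hdc transcripts come from GENCODE M21.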

How the data were processed

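RNA of 1 group of 2 livers was analysed, with replicate numbers from the labels. The authors deposited expected counts (estimated reads per gene or transcript, not normalized), TPM, FPKM and each transcript's percent of its gene's TPM. The submitters' file descriptions name mm10 and GENCODE M4. The aligner, the counting program and the use of strand were not given in the sources used here. Symbols and positions came from GENCODE M21, matched by unversioned identifier. The 26345 rows of spike-ins and numeric IDs, with 7.35% and 6.72% of reads, were left out of library sizes. Log2 ratios used TPM with a pseudocount of 1. Count ratios used rounded expected counts with Clopper-Pearson 95% intervals of replicate 2's share of the reads. The intervals were checked on counts simulated with counting error alone, as they assume. That check says nothing of the spread between embryos. With 1 group, no p-value was computed.

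The 10 genes and the 22 lists (215 of 218 symbols matched) were chosen with earlier results of these data known. Named from each list were the 3 highest genes, the 2 largest ratios among those averaging at least 1 TPM, every gene of the protease, tryptase, IgE receptor and histamine lists, the listed cell type markers and the 5 genes nearest to Mcpt8. Not all are printed. Chosen after their values were seen, and so outside the rule, are Gata2, Mitf, Il3, Il5, Csf2, Il9, Il4, Csf2rb2, Eif2s3y, Ddx3y, Uty, Kdm5d and Xist. Alternatives were other pseudocounts, detection levels, units and scalings, and each library alone. Python 3.11.15, numpy 2.4.6, pandas 2.3.3, scipy 1.17.1, matplotlib 3.10.9 and, for TMM factors only, edgeR 4.0.16 under R 4.3.3 were used.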

Additional observations from a re-analysis of the deposited data

How the results depend on the processing

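The summed level of the 10 genes rested on the reference total: it was 56.5 TPM without globin genes, against 36.6, and ran from 28.3 to 44.9 TPM with a single library. With a single library, 4 to 6 genes reached 1 TPM. The number of genes at least 2-fold lower in replicate 2 was 2, but 4 with a pseudocount of 0.1 (Fcer1a and Tpsb2 added, each with fewer than 3 reads in replicate 2) and 1 with a pseudocount of 5, where Prss34 no longer passed. Mcpt8 was 2-fold lower under all 8 settings tried, with log2 ratios from -1.82 to -1.05, and Prss34 under 7 of 8. The median log2 ratio of the 10 genes was -0.24. It was -0.75 with a pseudocount of 0.1, -0.11 with 5, -0.29 from FPKM, -0.41 from CPM with TMM factors, -0.39 from CPM without them and -0.32 without globin genes. It was -0.26 over the 5 genes averaging at least 1 TPM and -0.23 without Mcpt8 and Prss34, the latter chosen after the data were seen. From TPM to CPM with TMM factors, the median of all genes moved by -0.10, and to CPM without them by -0.05. Of 291 alternative ratios of 97 named genes, 63 moved outside the counting interval. Only differences of at least 2-fold were checked for a change of sign. None changed, but another pseudocount cannot change a sign, so this says little. Some smaller ratios, such as those of Cpa3, Ptpn6 and Btk, did change sign on CPM with TMM factors. Depth limits Fcer1a, Tpsb2 and Cma1, for which 11 to 13 reads cannot show a moderate difference. No paired analysis was possible because there is only 1 group.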
